A study of Mus musculus with 6 samples.

Results

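The expression of Bcl2l1 and Bcl2l11, which encode BCL2 family proteins with opposite effects on cell survival, was examined in mouse livers after treatment with GW4064, a synthetic agonist of FXR (farnesoid X receptor). FXR is a nuclear receptor that binds bile acids. All animals were C57BL/6J adults of wild type genotype. GW4064 was given to 3 of them and vehicle to the other 3, and the liver of each was run on 1 Affymetrix array. Dosing was 3 times over 2 days at 100 mg per kg body weight, with an overnight fast that began at the second dose, and tissue was collected 2 hours after the third. Whole liver was measured, so that a change in the number of cells of a type and a change in RNA per cell cannot be told apart. Both genes were chosen by the contrast between these same arrays: they are 2 of the 87 genes that the authors' deposited list of differing probe sets names by a single symbol, out of 22690 probe sets on the arrays. Each gene had 1 probe set in that list, which was made at a fold of at least 1.5 by an unpaired test. Any further probe sets of either gene outside the list could not be named and were not analysed. Each gene is thus described by 1 probe set that had passed the list's selection. The difference between the groups is therefore how the genes entered, and it is described here with its error and without a test.

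BCL2 family proteins control the permeability of the outer mitochondrial membrane. Bcl2l1 encodes BCL-xL, an anti-apoptotic member that holds the pore-forming proteins BAX and BAK in check, and alternative splicing of its transcript also gives a short form that promotes cell death. Bcl2l11 encodes BIM, a BH3-only protein that binds BCL-xL and related survival proteins and activates BAX and BAK, and it too is made in several spliced forms. In mouse liver, BCL-xL is needed for the survival of hepatocytes, and BIM takes part in hepatocyte death set off by death receptors. Both probe sets carry the suffix _a_at, by which Affymetrix marks several transcripts of 1 gene. RefSeq lists 5 curated transcripts for Bcl2l1 and 5 for Bcl2l11, and the array values do not separate the forms.

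In every liver of a GW4064-treated mouse, Bcl2l1 was higher and Bcl2l11 was lower than in every liver of the vehicle mice. Bcl2l1 (probe set 1426191_a_at, Entrez gene 12048), on chromosome 2 (band H1), had log2 levels of 5.93, 5.96 and 5.83 in GW4064 replicates 1, 2 and 3, against 4.96, 4.88 and 5.60 in vehicle replicates 1, 2 and 3. The GW4064 mice lay close together, whereas vehicle replicate 3 lay well above the other vehicle mice and 0.24 below the lowest GW4064 mouse. The means were 5.91 ± 0.07 in GW4064 and 5.15 ± 0.39 in vehicle livers (SD, n = 3 each), a difference of 0.76 with a standard error (SE) of 0.18 from limma, or 1.70-fold. Bcl2l11 (probe set 1456005_a_at, Entrez gene 12125), on the same chromosome (band F3-G1), had log2 levels of 6.79, 7.34 and 7.26 in GW4064 livers, against 7.56, 7.93 and 7.62 in vehicle livers. GW4064 replicate 1 was the lowest of all, and the highest GW4064 mouse lay 0.22 below the lowest vehicle mouse. The means were 7.13 ± 0.30 in GW4064 and 7.71 ± 0.20 in vehicle livers (SD, n = 3 each), and GW4064 minus vehicle was -0.58 with an SE of 0.16, which is 1.49-fold lower.

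**Figure D1:**
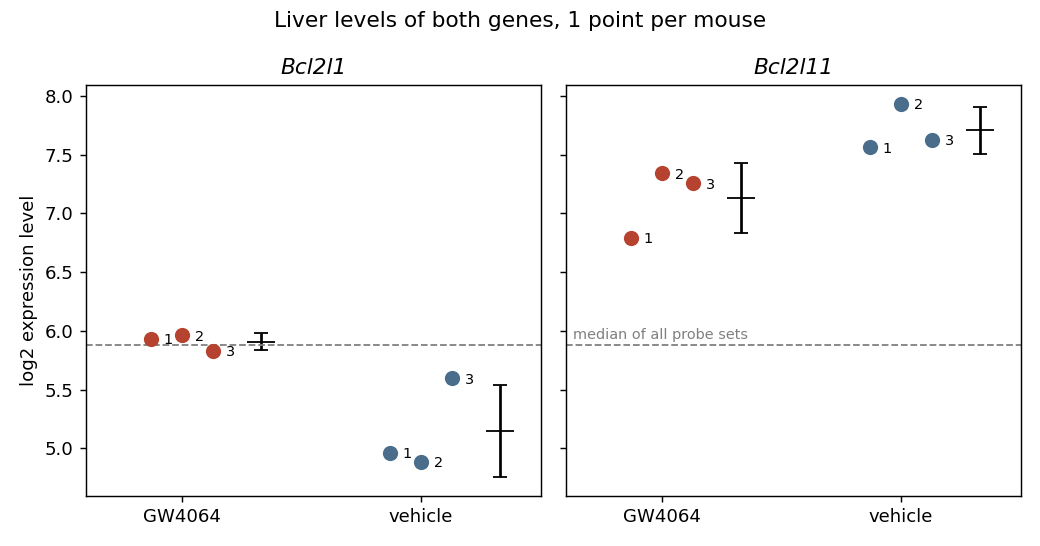
Log2 expression levels of Bcl2l1 (left) and Bcl2l11 (right), 1 numbered point per mouse for GW4064 and vehicle, with black bars for the mean and SD of 3 mice and a dashed line at the median of all probe sets, 5.88. Neither gene overlaps between the groups, and vehicle replicate 3 is the vehicle mouse nearest to GW4064 for Bcl2l1.

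Both genes thus lay without overlap between the groups, as did 6.70% of all 22626 probe sets other than controls in the higher direction and 7.16% in the lower. Since both were selected on this contrast, nothing follows from that count. Across the arrays 0% of probe sets (0 of 22626) had an adjusted p under 0.05 by limma with Benjamini-Hochberg adjustment, and 70 without GW4064 replicate 3. At an unadjusted p under 0.05 there were 1985 or 8.77%, and with a fold of at least 1.5 as well 0.632% were higher and 0.619% lower. The median difference over all probe sets was 0.00, and the medians of the 6 arrays lay between 5.87 and 5.89. The deposited values had been normalized between arrays, so these medians cannot show whether an array was shifted before that.

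Bcl2l1 was dim. Its mean over the 6 arrays, 5.53, was below the median of all probe sets, 5.88, and stood at the 45.0th percentile, while Bcl2l11 with 7.42 stood at percentile 70.1. Within each array, the Bcl2l1 probe set stood at percentiles of 49.5 to 51.1 in the GW4064 mice, against 36.0, 33.8 and 46.1 in vehicle replicates 1, 2 and 3. A low signal makes a log2 difference less certain, and no detection calls were used here. For Bcl2l11, the percentile was between 62.1 and 69.2 in GW4064 and between 71.6 and 76.6 in vehicle mice.

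On the deposited values Bcl2l11 lay just under the 1.5-fold limit of the list, and was 1 of 15 among its 110 probe sets that did not reach it. Its neighbours in size among the listed probe sets lower in GW4064 were those of the thiamine transporter gene Slc19a2 at -0.59 (1.51-fold), just inside the limit, and of Cabyr at -0.58, just outside it. By size of difference, Bcl2l1 was 35th of the 60 listed probe sets that were higher and Bcl2l11 42nd of the 50 that were lower. Bcl2l1 thus stood near the middle of its direction and Bcl2l11 among the smaller differences of its own.

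The genes were then set against each other mouse by mouse, by subtracting the log2 level of Bcl2l11 from that of Bcl2l1 on each array. Such a difference cancels any factor common to an array. Its own size has no meaning, because each probe set binds its target with its own strength, and only its change between mice can be read. It was -0.86, -1.38 and -1.42 in GW4064 replicates 1, 2 and 3, against -2.60, -3.05 and -2.03 in vehicle replicates 1, 2 and 3. Every GW4064 mouse lay above every vehicle mouse, with a gap of 0.60 between the nearest mice, GW4064 replicate 3 and vehicle replicate 3. The mean was -1.22 ± 0.32 in GW4064 and -2.56 ± 0.51 in vehicle livers (SD, n = 3 each), so the ratio of the Bcl2l1 to the Bcl2l11 signal was 2.53-fold higher in GW4064 livers (1.34 on the log2 scale, SE 0.35 from the 6 differences). Over the 9 pairs of a GW4064 and a vehicle mouse it was higher by 0.60 to 2.19. Since the genes did not overlap in opposite directions, with gaps of 0.24 for Bcl2l1 and 0.22 for Bcl2l11, their difference could not overlap either, and its gap had to reach at least the sum of both. The separation is thus no further result. The genes were also chosen for their opposite directions. The combined difference therefore adds up both selected differences, and its size and SE are given as description only. The mice nearest to the other group were not the same for both genes. For Bcl2l1 they were GW4064 replicate 3 and vehicle replicate 3, and for Bcl2l11 GW4064 replicate 2 and vehicle replicate 1.

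Within a group, the order of the mice by Bcl2l1 and by Bcl2l11 was also compared. GW4064 replicate 1, with the lowest Bcl2l11, was in the middle for Bcl2l1, and its distance from the vehicle mean in the combined difference, 1.70 against 1.18 and 1.13 for replicates 2 and 3, reflected its level of Bcl2l11. In vehicle replicate 2, with the lowest combined value, Bcl2l1 was lowest and Bcl2l11 highest. Vehicle replicate 3 had the highest Bcl2l1 of its group and a middle level of Bcl2l11. The deviations of both genes from their group means had a Pearson r of -0.27 over the 6 arrays, a description of few points that share their arrays.

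The differences were also computed without each mouse. Leaving out each array in turn gave 0.63 to 0.99 for Bcl2l1, -0.68 to -0.41 for Bcl2l11 and 1.09 to 1.60 for the combined difference. Bcl2l1 moved most without vehicle replicate 3, to 0.99 (SE 0.09) or 1.98-fold. Bcl2l11 moved most without GW4064 replicate 1, to -0.41 (SE 0.13) or 1.33-fold lower. Because neither gene overlapped between the groups, leaving out a mouse could not have turned its direction.

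**Figure D2:**
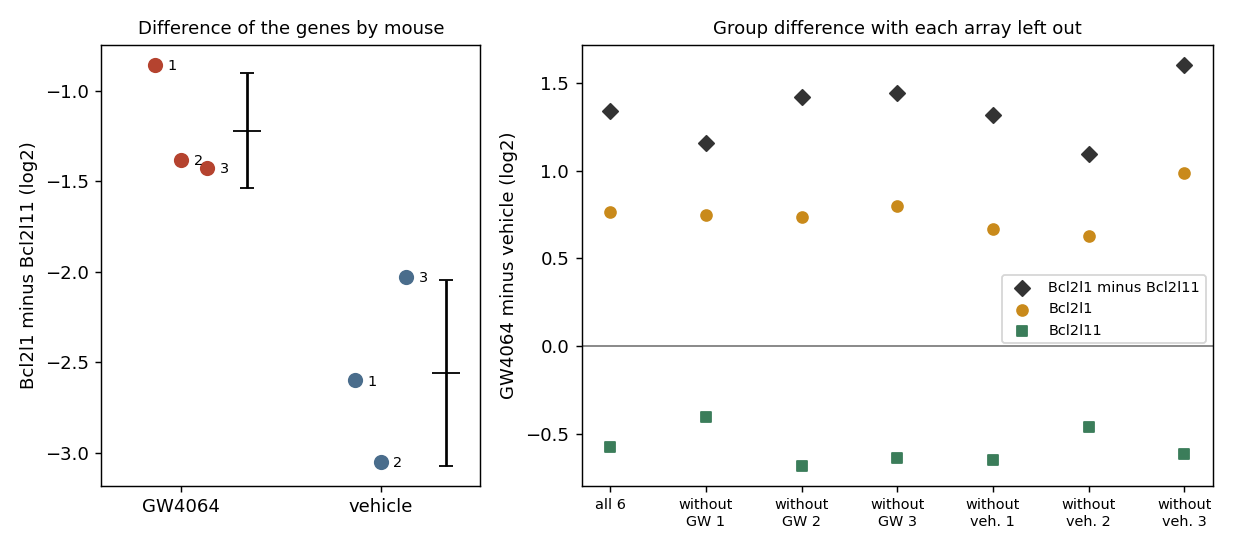
Left, the log2 level of Bcl2l1 minus that of Bcl2l11 on each array, 1 numbered point per mouse for GW4064 and vehicle, with black bars for the mean and SD of 3 mice. Right, GW4064 minus vehicle (log2) for the combined difference, Bcl2l1 and Bcl2l11 with all 6 arrays and with each array left out, where the combined difference stays between 1.09 and 1.60.

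The genes differed in how evenly the GW4064 mice departed from vehicle. Relative to the mean of the vehicle mice, Bcl2l1 was at 0.79, 0.81 and 0.68 in GW4064 replicates 1, 2 and 3, so the nearest mouse reached 0.84 of the distance of the farthest. This ratio was the 3rd largest of the 110 listed probe sets, whose median was 0.44. Bcl2l11 was at -0.92, -0.36 and -0.45 relative to that mean, a ratio of 0.40, which ranked 72nd. The SD of Bcl2l1 among GW4064 mice, 0.07, was the 3rd smallest of the 110, and its SD among vehicle mice, 0.39, the 12th largest. Of the 110, 37 had a larger SD in vehicle than in GW4064 mice. The SDs of Bcl2l11, 0.30 in GW4064 and 0.20 in vehicle mice, were close to the medians over the list, 0.32 in GW4064 and 0.23 in vehicle mice. Over all probe sets the median SD was 0.114 in GW4064 and 0.111 in vehicle mice, below those of the list. An SD of 3 mice is itself imprecise. The list was made by an unpaired test on these same arrays, and such a test uses the spread within groups. The ranks, SDs and ratios of listed probe sets are therefore given as description only.

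**Figure D3:**
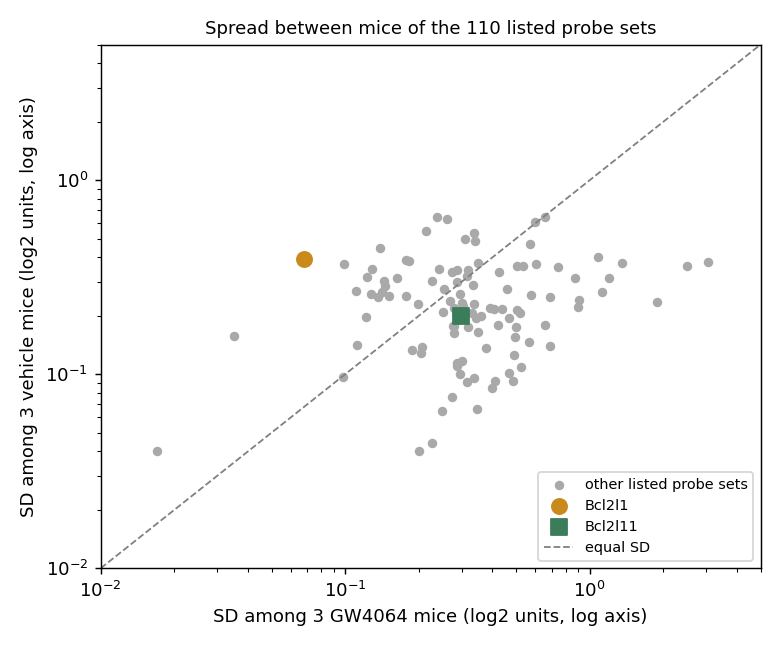
SD of the log2 level among 3 GW4064 mice (x) and among 3 vehicle mice (y) for the 110 listed probe sets, both on log axes, with a dashed line of equal SD. Bcl2l1 (0.07 in GW4064 and 0.39 in vehicle mice) lies far above the line and Bcl2l11 (0.30 in GW4064 and 0.20 in vehicle mice) within the main cloud.

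To see which other genes followed the same mice, each gene was compared with the other 85 named genes of the list by Pearson r over the 6 arrays. All of them were selected on the same contrast, so high values of r over the levels are expected from the choice, and the points share their arrays. Closest to Bcl2l1 were Zfp445, which encodes a zinc finger protein (r = 0.94), Luc7l, which encodes a splicing factor (r = 0.92), and Fkbp5, a glucocorticoid-induced cochaperone gene (r = 0.91). Zfp445 was at 0.69, 0.58 and 0.83 relative to the mean of the vehicle mice in GW4064 replicates 1, 2 and 3, against 0.00, -0.35 and 0.35 in vehicle replicates 1, 2 and 3. Like Bcl2l1, it was evenly high under GW4064, and its vehicle replicate 3 stood nearest to the treated mice. Closest to Bcl2l11 were Fam89a (r = 0.98), the lymphatic growth factor gene Vegfd (r = 0.97) and Coq8a, which acts in coenzyme Q synthesis (r = 0.94). On the same scale Fam89a was at -1.36, -0.64 and -0.82 in GW4064 replicates 1, 2 and 3, against -0.11, 0.15 and -0.04 in vehicle replicates 1, 2 and 3. As with Bcl2l11, GW4064 replicate 1 was the lowest mouse and vehicle replicate 2 the highest.

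The comparison was repeated on deviations from the group means, which leave the contrast out. The highest values of r were again picked from 85 genes over 6 arrays. High values can arise from that search alone, and they were not tested. The genes nearest to Bcl2l11 were again Fam89a (r = 0.97), Vegfd (r = 0.92) and Coq8a (r = 0.84). For Bcl2l1 they were other genes: Sstr2, a somatostatin receptor gene (r = 0.90), Zpr1, a zinc finger protein gene (r = 0.81), and Plxna2, a semaphorin receptor gene (r = 0.80). All 3 were lower in GW4064 livers, with differences of -0.44 (SE 0.08), -0.76 (SE 0.15) and -0.62 (SE 0.14), the opposite direction to Bcl2l1. Each of the 3 was highest in vehicle replicate 3 among vehicle mice, as was Bcl2l1. For Sstr2 that mouse lay only 0.04 above the vehicle mean, against 0.45 for Bcl2l1. This is below the median SD of all probe sets in vehicle mice, 0.11, so the r of Sstr2 rests on very small deviations. The GW4064 mice did not keep 1 order: Bcl2l1 was lowest in GW4064 replicate 3, where Plxna2 was highest, and Zpr1 was lowest in replicate 1. Several of these genes were dim by the same measure as Bcl2l1, which makes these likenesses less certain. Luc7l had mean levels of 5.77 in GW4064 and 5.24 in vehicle livers, and Sstr2 had 5.20 in GW4064 and 5.64 in vehicle livers. Fam89a had 5.16 in GW4064 and 6.10 in vehicle livers, and Vegfd 4.35 in GW4064 and 5.20 in vehicle livers.

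**Figure D4:**
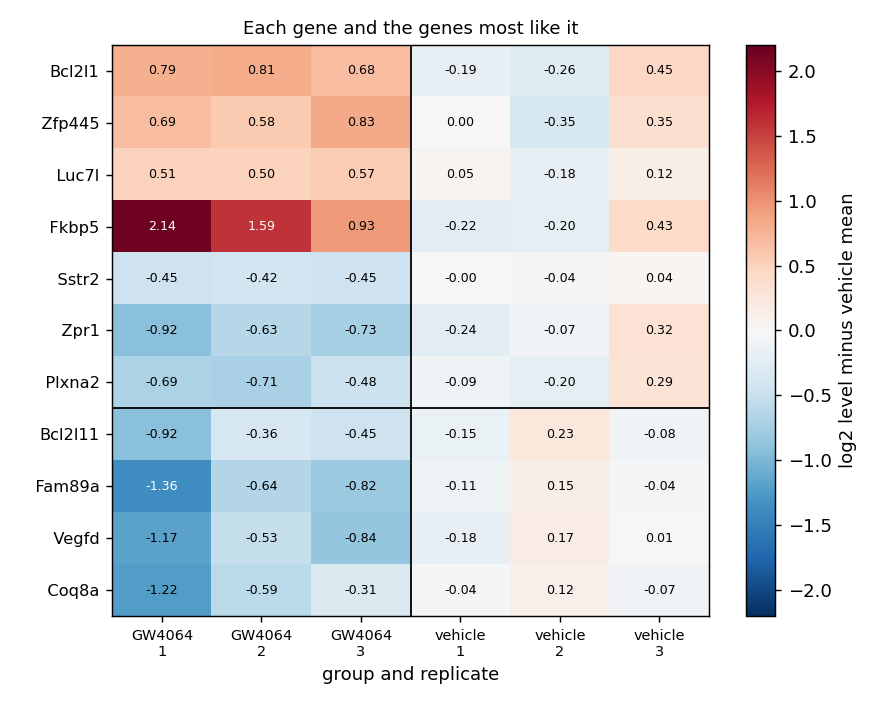
Log2 level minus the vehicle mean (colour and number in each cell) in GW4064 replicates 1 to 3 and vehicle replicates 1 to 3, for Bcl2l1 (top block) and Bcl2l11 (bottom block), each above the named genes most like it by level and by deviation from the group means. Sstr2, Zpr1 and Plxna2 are highest in vehicle replicate 3 among vehicle mice, as Bcl2l1 is, though Sstr2 by only 0.04 above the vehicle mean. These 3 are lower under GW4064, whereas Fam89a, Vegfd and Coq8a share the low GW4064 replicate 1 of Bcl2l11.

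Other genes of apoptosis were sought in lists of the BCL2 family and of the cell death machinery. Of 27 BCL2 family genes, the 2 described here were the ones with a named probe set, 1 of 8 anti-apoptotic members and 1 of 8 BH3-only members. The other 25, among them the survival gene Mcl1 and the pore-forming effectors Bax and Bak1, were not analysed here because no table at hand names their probe sets. The same held for all 45 genes of caspases and the apoptosome, caspase inhibitors, death receptors and p53 targets. The balance of the family as a whole was therefore not tested, and the absence of these genes says nothing of their levels.

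Both genes were also placed beside genes induced by the same signals, since Bcl2l1 is a known target of STAT3 and NF-kappaB, which act in the acute phase response, and Bcl2l11 of FOXO factors, which act in fasting. In 21 lists of 212 genes, 12 genes other than these had a named probe set. All came from the authors' list and so were selected on these arrays. By limma 0 of the 12 passed the adjusted threshold, as did 0 of all 22626 probe sets, so this count says nothing of the 12. Of 16 STAT3 targets, the acute phase genes Saa1, Saa2 and Lcn2 and the interleukin 1 receptor gene Il1r1 were higher alongside Bcl2l1. Of 14 NF-kappaB targets, the chemokine gene Cxcl1 and Nfkbiz, which encodes an inhibitor-like regulator of NF-kappaB, were higher as well. These 6 genes were far less even between mice than Bcl2l1. Relative to the mean of the vehicle mice, Lcn2 was at 7.80, 7.09 and 2.18 in GW4064 replicates 1, 2 and 3, and Nfkbiz, the most even of them, at 1.58, 1.38 and 0.65. In each of the 6, GW4064 replicate 3 was the nearest to vehicle, at a distance between 0.21 and 0.41 of the farthest mouse, against 0.84 for Bcl2l1. The probe sets of Saa2 and of Zbtb16, named next, carry a suffix that marks possible binding of related transcripts, so their values are less certain.

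Of 15 FOXO targets, Igfbp1, a fasting-induced binding protein gene of insulin-like growth factors, was lower alongside Bcl2l11. On the same scale it was at -2.12, -1.48 and -0.92 in GW4064 replicates 1, 2 and 3, with replicate 1 farthest from vehicle. Of 14 glucocorticoid-induced genes, Fkbp5, Zbtb16, Tsc22d3, Lcn2 and Bcl2l1 were higher and Bcl2l11 lower. Tsc22d3, at 0.37, 0.56 and 0.85, was the 1 gene among these in which replicate 3 lay farthest. Of 9 FXR targets, 2 had a named probe set. Nr0b2, the gene of the corepressor SHP, was at 2.81, 1.44 and 1.11, and Cyp8b1, a bile acid hydroxylase gene repressed through SHP, at -3.76, -2.08 and -1.42. GW4064 replicate 1 was the mouse farthest from vehicle in 9 of the 12 other genes of the lists, both higher and lower ones, so that this is not particular to the genes set beside Bcl2l11.

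**Figure D5:**
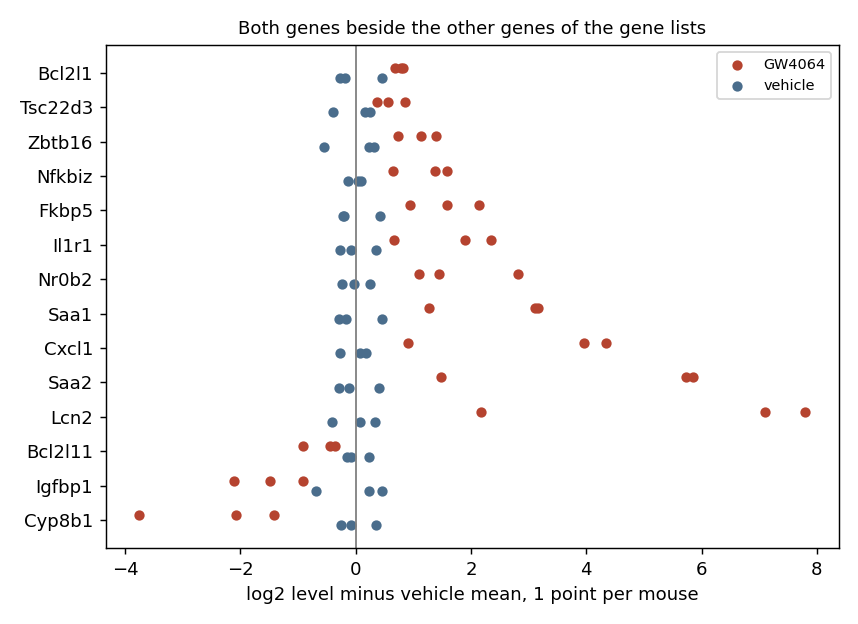
Log2 level minus the vehicle mean, 1 point per mouse (GW4064 above vehicle in each row), for Bcl2l1, Bcl2l11 and the 12 other genes of the lists with a named probe set. Bcl2l1 forms a tight group of GW4064 mice between 0.68 and 0.81, while Lcn2 spans 2.18 to 7.80.

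The cells that the transcripts came from could not be traced. Of 85 marker genes in 8 lists (hepatocytes, neutrophils, lymphocytes, macrophages, endothelial, stellate, bile duct and erythroid cells) 1 had a named probe set, the neutrophil gene Lcn2, which hepatocytes also express in the acute phase. The 12 hepatocyte markers had none, so the labelled tissue was not checked against them. The part of cell composition in the levels of Bcl2l1 and Bcl2l11 was not tested.

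The promoters of both genes were read for binding motifs of the factors named above, because the genes lay on opposite sides of vehicle. RefSeq start sites of GRCm38.p6 gave 3 windows for Bcl2l1 and 2 for Bcl2l11, each of 300 bases, from 250 before to 50 after a start site. Letters were searched on both strands: the FXR inverted repeat IR1 (AGGTCANTGACCT), the nuclear receptor hexamer contained in it (AGGTCA), a FOXO site (GTAAACA), a STAT site (TTCNNNGAA), the glucocorticoid response element (GNACANNNTGTNC) and the kappaB consensus. The 3 windows with a match are printed 5′ to 3′ along the gene's strand, with the match in capitals.
Bcl2l11 window 1, chr2:128125788-128126087, plus strand: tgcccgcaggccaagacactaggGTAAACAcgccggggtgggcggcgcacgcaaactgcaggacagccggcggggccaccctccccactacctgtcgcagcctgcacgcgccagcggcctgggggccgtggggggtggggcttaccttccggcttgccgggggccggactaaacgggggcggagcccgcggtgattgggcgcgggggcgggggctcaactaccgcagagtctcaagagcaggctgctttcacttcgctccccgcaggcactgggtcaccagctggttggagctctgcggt
Bcl2l1 window 2, chr2:152830668-152830967, minus strand: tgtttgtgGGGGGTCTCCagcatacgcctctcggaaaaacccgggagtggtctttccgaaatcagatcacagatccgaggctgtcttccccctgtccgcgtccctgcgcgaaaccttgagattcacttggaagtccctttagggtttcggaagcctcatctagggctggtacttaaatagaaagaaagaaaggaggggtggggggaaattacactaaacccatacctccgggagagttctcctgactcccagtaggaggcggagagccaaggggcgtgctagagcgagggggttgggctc
Bcl2l1 window 3, chr2:152828440-152828739, minus strand: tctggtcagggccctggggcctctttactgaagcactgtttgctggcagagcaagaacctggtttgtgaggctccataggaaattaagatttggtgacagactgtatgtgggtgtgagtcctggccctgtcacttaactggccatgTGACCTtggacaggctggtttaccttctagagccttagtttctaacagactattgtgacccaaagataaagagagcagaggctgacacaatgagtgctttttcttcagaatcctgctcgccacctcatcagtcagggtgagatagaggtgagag
Bcl2l11 window 1 held the FOXO letters near its upstream end, which 3.65% of all 32851 windows in the table held. Bcl2l1 window 2 held a kappaB match, as did 4.51% of windows, and Bcl2l1 window 3 held the nuclear receptor hexamer on the opposite strand, which 16.3% of windows held on either strand. Neither gene had a match to IR1 (0.00913% of windows), the STAT site (8.30%) or the glucocorticoid response element (0.475%) in these windows. A match describes letters only, and sites outside the windows were not searched. The letters had to match in full, so a site inside a window that departs from them would be missed. The start regions also differed in base composition, with 71.0% and 74.0% G and C in the Bcl2l11 windows and 52.3%, 55.7% and 49.3% in those of Bcl2l1, against a median of 52.7% over all windows.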

How the data were processed

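Total RNA from 6 livers was labelled as biotinylated cRNA and hybridized to Affymetrix arrays. The deposited log2 values per probe set were made by the authors with Affymetrix Power Tools and had been normalized between arrays. How probes were summarised, and the version, is not given in the sources used here. In the labels stands another array design (Mouse Gene 1.0 ST) than in the header of the authors' list (Mouse430A_2), whose probe set identifiers the values carry. That list also holds the authors' folds and directions, which were not used. It served to choose and name the genes and as the set of 110 probe sets for ranks and spreads. Its 99 probe sets of 1 symbol give 87 genes, each found by Entrez identifier in RefSeq (GRCm38.p6), by which 10 symbols were updated.

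Of 22690 probe sets, 64 controls were set aside. The groups were compared with lmFit and eBayes of limma 3.58.1 under R 4.3.3 (group as the only term, two-sided, Benjamini-Hochberg adjustment over 22626 probe sets). The fit was tested on simulated data only with shifts larger than the differences of Bcl2l1 and Bcl2l11. Every difference is the GW4064 mean minus the vehicle mean in log2 units. The members, the gene lists and the tests were chosen with earlier results of these data known. The genes given with values are both members, every gene of the lists with a named probe set and, for each member, the 3 genes of highest r by level and by deviation. Slc19a2 and Cabyr were added as the neighbours of Bcl2l11 in size of difference. A gene with several probe sets was given by the brightest. Alternatives were renormalization, array weights, other tests, a filter on dim probe sets, medians, a replicate block and leaving out each array. The number of arrays limits the precision, and p-values measure the spread between these mice.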

Additional observations from a re-analysis of the deposited data

How the results depend on the processing

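Bcl2l1, Bcl2l11 and their combined difference kept their direction under all 11 alternatives computed for each. Because neither gene overlapped between the groups, leaving out an array, medians, array weights and the block could not have turned a direction. The sizes below are therefore given as description. Differences of medians gave 0.97, -0.37 and 1.22, and array weights 0.79, -0.47 and 1.26. Leaving out 1 array gave 0.63 to 0.99, -0.68 to -0.41 and 1.09 to 1.60. Neither gene had a second probe set in the authors' list, and any outside it could not be named, so the planned comparison of probe sets was not run. Whether other probe sets of either gene go the same way was not tested. The filter on dim probe sets removed 11313 of them, Bcl2l1 included.

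Probe sets with an adjusted p under 0.05 by limma numbered 0 with all 6 arrays under each alternative and 0 to 70 with 1 array left out, 70 without GW4064 replicate 3. The count at 1.5-fold and an unadjusted p under 0.05 was 283, 97 by the methods' t-test, 304 with the replicate block and 158 (without GW4064 replicate 1) to 573 (without GW4064 replicate 3) with 1 array left out. The causes were not tested. The block holds 1 mouse of each group per replicate number, so it could not change the differences of 0.76 and -0.58. Their SE went from 0.18 to 0.17 for Bcl2l1 and from 0.16 to 0.11 for Bcl2l11, and the adjusted count stayed at 0. Replicate numbers name mice within a group, and deviations of same-numbered mice correlated at 0.00, 0.05 and -0.03, so the numbers were not taken to pair the mice.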
